A study of Mus musculus with 2 samples.

Results

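CD8 T cells were picked from the barcodes of subcutaneous tumours in C57BL/6 mice injected with CMT167R, a carcinoma line labelled as resistant to anti-PD1 and WT in genotype. The PKCi group received a compound known only by that name at 3 mg/kg daily into the peritoneum, and the control group received its solvent. Each group gave 1 droplet library of the whole dissociated tumour, taken when control tumours reached 400 mm3, and the labels report that tumour volumes differed by then. The series' title asks about XIAP, protein kinase C (PKC) signalling and resistance to immunotherapy, and neither the compound's identity nor the number of mice behind a library is stated.

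A barcode was taken as a CD8 T cell when it had at least 500 genes, at most 20% mitochondrial unique molecular identifiers (UMIs), at least 3 UMIs summed over the T cell receptor genes Cd3d, Cd3e, Cd3g, Trac and Trbc2 and at least 1 UMI of the co-receptor genes Cd8a or Cd8b1. In addition C1qa, C1qb and C1qc together had to stay under 0.3% and Lyz2 under 0.2% of the UMIs, which leaves out macrophage barcodes. This gave 77 CD8 T cells among 13590 barcodes that passed the first 2 limits, 51 of 7210 in the PKCi library and 26 of 6380 in the control library. CD8-negative T cells passed the same limits with 0 UMIs of Cd8a and Cd8b1, and numbered 91 in the PKCi library and 63 in the control library. Natural killer (NK) cells, gated by at least 3 UMIs over Ncr1, Klrb1c, Klre1 and Klra8 with under 3 T cell receptor UMIs, numbered 36 in the PKCi library and 15 in the control library. With 1 library per treatment no difference between treatments has a replicate check or a test, and every interval is an exact 95% interval that covers counting error only.

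CD8 T cells recognise peptides on class I major histocompatibility molecules and kill the presenting cell with perforin and granzymes or signal through cytokines such as interferon gamma. In T cells the receptor activates PKC theta, which through BCL10 and MALT1 releases the transcription factor NF-kB, while calcium and MAP kinases induce NFAT and AP-1 genes. T cells that meet antigen for long in a tumour raise PD-1 and other inhibitory receptors, and PD-1 is the receptor that anti-PD1 antibodies block.

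The 250 bases before the start of 6 genes are given here because the values below turn on them: Pdcd1 and Klrc1 set CD8 T cells apart from CD8-negative T cells, and Xcl1, Nfkbia, Gzmc and Gzmf differed between the libraries. All 6 were matched in the RefSeq promoter table (build GRCm38.p6), all lie on the minus strand, and they are written from 5' to 3' on the gene's strand. Capitals mark matches to 3 motifs, searched on both strands: RUNX (TGTGGT or ACCACA, present in 14.0% of 32851 promoters of this length), NF-kB (GGG, any 2 bases and TTTCC, or the reverse complement, 1.41%) and the cyclic AMP response element CRE (TGACGTCA, 1.55%). The AP-1 motif TGANTCA, which 6.75% of promoters hold, was also searched.
Pdcd1 (chr1:94052554-94052803): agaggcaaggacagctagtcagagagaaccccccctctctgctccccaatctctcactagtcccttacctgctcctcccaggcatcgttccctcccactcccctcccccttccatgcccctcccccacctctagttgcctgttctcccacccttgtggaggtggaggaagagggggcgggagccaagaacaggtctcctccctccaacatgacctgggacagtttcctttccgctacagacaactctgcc
Klrc1 (chr6:129678974-129679223): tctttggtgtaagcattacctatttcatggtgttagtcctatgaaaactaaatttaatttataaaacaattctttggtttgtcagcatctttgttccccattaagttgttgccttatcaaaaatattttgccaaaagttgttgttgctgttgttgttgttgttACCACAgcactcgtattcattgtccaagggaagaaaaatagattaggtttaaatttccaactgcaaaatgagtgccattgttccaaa
Xcl1 (chr1:164935523-164935772): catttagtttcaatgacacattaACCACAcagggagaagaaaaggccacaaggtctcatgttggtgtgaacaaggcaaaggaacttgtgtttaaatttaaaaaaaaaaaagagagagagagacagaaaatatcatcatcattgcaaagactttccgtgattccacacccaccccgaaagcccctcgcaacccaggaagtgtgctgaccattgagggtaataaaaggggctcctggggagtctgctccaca
Nfkbia (chr12:55492648-55492897): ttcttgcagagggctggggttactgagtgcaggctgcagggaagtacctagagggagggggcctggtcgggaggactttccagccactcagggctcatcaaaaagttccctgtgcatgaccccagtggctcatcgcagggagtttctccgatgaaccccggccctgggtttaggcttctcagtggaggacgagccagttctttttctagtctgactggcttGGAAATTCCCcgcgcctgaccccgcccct
Gzmc (chr14:56234658-56234907): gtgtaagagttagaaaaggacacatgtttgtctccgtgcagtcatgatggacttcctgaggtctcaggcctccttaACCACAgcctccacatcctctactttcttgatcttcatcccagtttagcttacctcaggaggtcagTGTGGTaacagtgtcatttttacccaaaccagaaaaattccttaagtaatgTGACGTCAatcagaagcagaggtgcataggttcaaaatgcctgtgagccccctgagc
Gzmf (chr14:56211408-56211657): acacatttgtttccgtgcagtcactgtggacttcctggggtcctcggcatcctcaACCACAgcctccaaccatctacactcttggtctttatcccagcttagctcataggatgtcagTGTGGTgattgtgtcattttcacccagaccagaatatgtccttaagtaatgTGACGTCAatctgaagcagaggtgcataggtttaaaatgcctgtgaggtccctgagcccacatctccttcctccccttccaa
Klrc1 and Xcl1 each held 1 RUNX match, 87 to 82 and 227 to 222 bases before the start. Nfkbia held 1 NF-kB match, 29 to 20 bases before the start. Gzmc and Gzmf, neighbours in the granzyme cluster of chromosome 14, held the same order of matches. In Gzmc the RUNX matches lay at 174 to 169 and 108 to 103 bases and the CRE at 57 to 50 bases, and in Gzmf the RUNX matches lay at 195 to 190 and 133 to 128 bases and the CRE at 82 to 75 bases. Shifted by 25 bases and compared without gaps, the 2 granzyme windows were identical at 129 of 225 positions (57.3%). The RUNX matches farther from the start do not line up at this shift, so part of the windows was compared out of register. Identity with gaps allowed was not computed. No match to these letters was found in the Pdcd1 window, and none of the 6 windows held the AP-1 letters. The starts used for Klrc1 and Gzmc lie inside the gene spans that RefSeq gives, so other starts exist for both.

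The CD8 T cells were shallow cells of deep libraries. Their median was 5407 UMIs and 2096 genes in the PKCi library and 6830.5 UMIs and 2369 genes in the control library, against a median of 29763 UMIs over all PKCi barcodes that passed. Summed, they held 534103 UMIs in the PKCi library and 390902 in the control library. A few barcodes carried much of these sums: 3 PKCi and 3 control barcodes had at least 3 UMIs of Krt8, a keratin of the carcinoma cells, and held 33.4% of the PKCi sum and 53.0% of the control sum. They had 116205, 53647 and 8635 UMIs in the PKCi library and 78952, 67453 and 60824 UMIs in the control library. Levels are given for all members unless stated otherwise, and the lists and the genes the results turn on also without these Krt8 barcodes, which leaves 48 PKCi and 23 control cells with 355616 and 183673 UMIs. 1 further control barcode held 82 S100a8 UMIs, and 2 PKCi and 3 control members held a UMI of Cd4 or Foxp3, genes of helper and regulatory T cells. The libraries shared 20 barcode sequences, none of them a member.

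**Figure D1:**
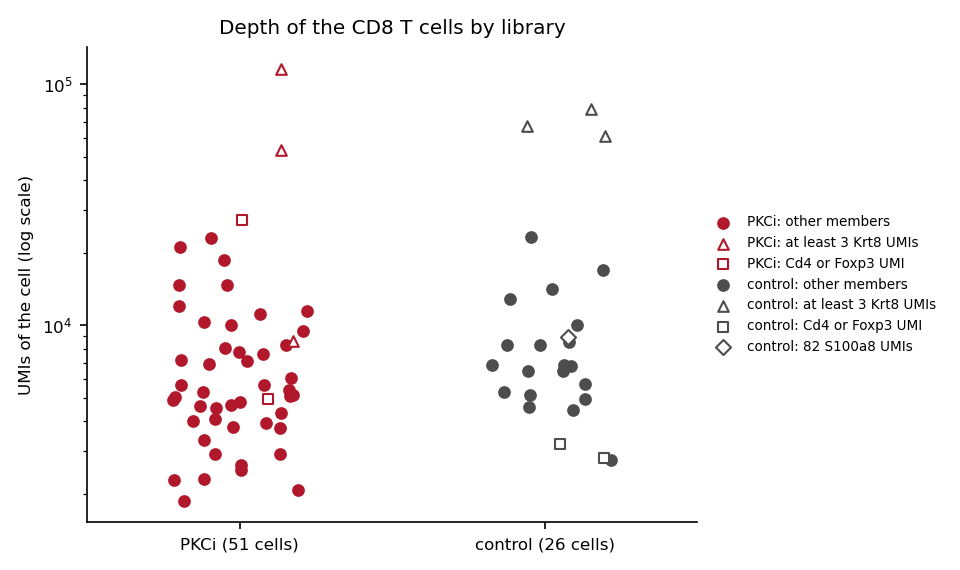
UMIs of each CD8 T cell (log scale) in the PKCi library (51 cells) and the control library (26 cells). Open triangles are barcodes with at least 3 Krt8 UMIs, open squares those with a Cd4 or Foxp3 UMI, and the open diamond is the control barcode with 82 S100a8 UMIs. 5 of the 6 triangles lie above all other members, at 53647 UMIs or more.

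The receptor genes of the rule, given as a description, placed the members well inside the T cell limit and close to the CD8 limit. Members had a median of 21 T cell receptor UMIs in the PKCi library and 21.5 in the control library, with lows of 4 and 6 and highs of 91 and 83. Just inside the limit, 1 PKCi and 0 control members had 3 or 4 such UMIs. Just outside it, among barcodes with a CD8 UMI, 0 in either library had 2 T cell receptor UMIs and 1 PKCi barcode had 1. The CD8 genes had a median of 5 UMIs in PKCi members and 6.5 in control members, and 7 PKCi and 5 control members had exactly 1. CD8-negative T cells were shallower, with medians of 4484 UMIs in the PKCi library and 5369 in the control library, and a shallower cell is less likely to show a CD8 UMI. How many of them were CD8 T cells was not tested. Krt8 barcodes made up 13 of the 91 PKCi and 5 of the 63 control CD8-negative T cells. They held 47.5% and 30.2% of the summed UMIs of that gate, and its levels include them unless stated otherwise.

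Markers of most other lineages were low or at 0, with the exceptions given below. Ncr1, Klra8 and Trdc, which mark NK and gamma delta T cells, were at 0 UMIs in all 77 members, as were Ms4a1 of B cells, Adgre1 of macrophages and Xcr1, Flt3 and Clec9a of dendritic cells. The summed level of the monocyte and macrophage markers was 135 UMIs per 1000000 (CPM) in PKCi members and 64.0 in control members, led by Lyz2 with 56 and 20 UMIs. Genes of CD4 and regulatory T cells (Cd4, Foxp3, Il2ra, Ikzf2 and Cd40lg) were not low, at 843 CPM in PKCi and 583 CPM in control members. In CD8-negative T cells they summed to 780 and 992 CPM. Among the members Cd4 was seen in 2 PKCi and 2 control cells and Foxp3 in 2 and 2. Of the 5 genes 2 reached 20 UMIs over both sums. The NK markers together summed to 193 CPM in PKCi and 113 CPM in control members, and the gamma delta T markers to 37.4 and 20.5 CPM. Dendritic markers summed to 144 CPM in PKCi members and 33.3 CPM in control members, mostly from Cd74, the class II invariant chain, with 63 and 11 UMIs. Neutrophil markers summed to 3.74 CPM in PKCi members and 798 CPM in control members, of which 96.7% came from the 1 control barcode. Carcinoma markers summed to 378 and 473 CPM in PKCi and control members, and to 84.4 and 21.8 CPM without the Krt8 barcodes. The part of this foreign RNA in the differences below was not tested, apart from the values without the Krt8 barcodes.

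CD8 T cells took a larger share of the PKCi library. They made up 0.707% (exact Clopper-Pearson interval 0.527 to 0.929) of PKCi barcodes and 0.408% (0.266 to 0.597) of control barcodes, a ratio of 1.74 (1.06 to 2.90). Among T cells the CD8 share differed by less than its counting error: it was 35.9% (51 of 142, 28.0 to 44.4) in the PKCi library and 29.2% (26 of 89, 20.1 to 39.8) in the control library, a ratio of 1.23 (0.752 to 2.05). The larger share was not particular to CD8 T cells. NK cells numbered 36 of 7210 PKCi and 15 of 6380 control barcodes, and CD8-negative T cells 91 and 63, with no interval computed for either. Shares are relative to a suspension of mostly carcinoma cells, so more T cells and fewer other cells cannot be told apart.

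Most of the cells carried effector genes, and genes of inhibitory receptors were found in a part of them. To compare cells at equal depth each was thinned to 3000 UMIs, which left out 8 PKCi and 2 control cells and kept 43 and 24. The kept cells include the 3 PKCi and 3 control Krt8 barcodes. Their 3000 UMIs can include carcinoma RNA, so depth is equal in total UMIs but not necessarily in T cell UMIs. Nkg7, a protein of cytotoxic granules, then had a UMI in 35 of 43 PKCi cells and 18 of 24 control cells, and the chemokine Ccl5 in 29 and 17. Gzmb, the granzyme B gene, was seen in 20 PKCi and 12 control cells, and Prf1, perforin, in 18 and 9. The shares of cells with these granule genes did not differ beyond counting error. Pdcd1, which encodes PD-1, was seen in 18 PKCi and 9 control cells, and in 26 of 51 and 15 of 26 cells at full depth. Thinned carcinoma barcodes, those with at least 3 Krt8 UMIs outside the gates, had a Pdcd1 UMI in 0 of 998 PKCi and 0 of 1000 control barcodes, with exact upper limits of 0.369% and 0.368%. Tox, a transcription factor of exhausted T cells, was seen in 21 PKCi and 11 control cells after thinning.

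Pdcd1 was found in cells with and without Gzmb. At full depth 15 of 51 PKCi cells held both, 11 held only Pdcd1, 14 only Gzmb and 11 neither, and in the control library these counts were 11, 4, 7 and 4 of 26. Pdcd1 together with the memory factor Tcf7, the pair by which precursor-exhausted cells are recognised, was seen in 1 PKCi and 0 control cells. Tcf7 itself was sparse, in 6 PKCi and 6 control cells at full depth and in 3 and 1 after thinning. The gene Il7r, the receptor of the survival cytokine IL-7, was seen in 12 PKCi and 7 control cells after thinning, Lef1, a partner of Tcf7, in 4 and 7, and Ccr7, the homing receptor for lymph nodes, in 6 and 8. By lists, at least 2 naive and memory genes were found in 32 of 43 PKCi cells (74.4%) and 18 of 24 control cells (75.0%), at least 4 granule and death ligand genes in 34 (79.1%) and 16 (66.7%), and at least 3 checkpoint genes in 36 (83.7%) and 17 (70.8%). The shares sum to over 100%, so many cells passed more than 1 of these limits.

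**Figure D2:**
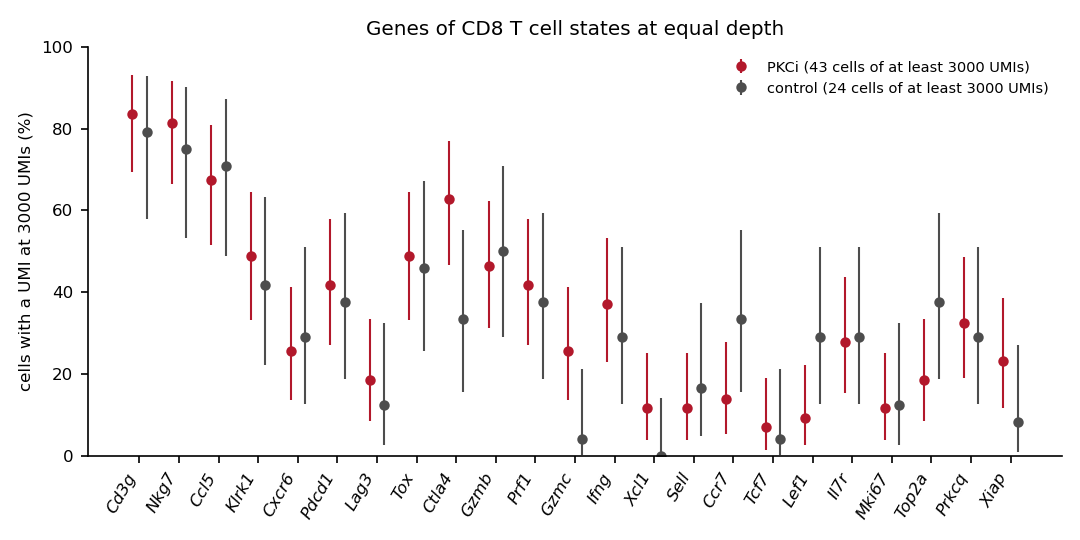
Percent of CD8 T cells with at least 1 UMI of each gene after thinning each cell to 3000 UMIs, in the PKCi library (43 cells) and the control library (24 cells). Bars are exact 95% intervals. Ctla4 (62.8% of PKCi and 33.3% of control cells) and Gzmc lie furthest apart, and the intervals of every gene plotted overlap.

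Between the libraries, 338 of 6283 genes with at least 20 UMIs were called higher in PKCi CD8 T cells (5.38%) and 495 were called lower (7.88%). A gene was called when its level differed at least 1.5-fold and the exact interval of the ratio left out 1. Without the Krt8 barcodes 225 of 4181 genes were called higher (5.38%) and 190 lower (4.54%), and of these 109 and 100 were also called with all members. Without the Krt8, S100a8, Cd4 and Foxp3 barcodes together, a choice made after seeing the data, 218 of 3837 were called higher (5.68%) and 223 lower (5.81%). Scaling by TMM, a method that trims extreme genes, gave 445 higher and 356 lower calls, so the share of higher calls was 55.6% against 40.6% with totals. Which direction prevailed thus changed with the scaling and with the Krt8 barcodes.

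The 12 genes with the highest ratios included the chemokine Xcl1, the NF-kB regulator Nfkbid and the granzyme-activating protease Ctsc. Xcl1, a chemokine that attracts cross-presenting dendritic cells, had 53 UMIs in 12 PKCi cells and 5 UMIs in 2 control cells, or 99.2 and 12.8 CPM, a ratio of 7.76 (3.12 to 24.9), and 6.84 without the Krt8 barcodes. The 3 PKCi cells with most Xcl1 held 16, 13 and 11 UMIs, which is 75.5% of the PKCi total. After thinning it was seen in 5 PKCi and 0 control cells. Nfkbid, a nuclear IkB protein that modulates NF-kB, had 36 UMIs in 22 PKCi cells and 7 in 5 control cells, a ratio of 3.76 (1.65 to 10.0), and 4.26 without the Krt8 barcodes. Ctsc, cathepsin C, which trims granzymes to their active form, had 109 CPM in 23 PKCi cells and 33.3 CPM in 10 control cells, a ratio of 3.27 (1.77 to 6.5). Cd80, a ligand of CD28 and CTLA-4, had 61.8 CPM in PKCi and 15.3 CPM in control cells, a ratio of 4.03 (1.67 to 11.8). Both stayed called without the Krt8 barcodes, at 2.74 and 3.10.

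Itpr1, the calcium channel of the endoplasmic reticulum that opens on receptor signalling, had 178 CPM in 28 PKCi cells and 56.3 CPM in 13 control cells, a ratio of 3.16 (1.97 to 5.28). Hspa1a, an inducible heat shock protein, had 139 CPM in PKCi and 43.5 CPM in control cells, a ratio of 3.19 (1.86 to 5.76). Osgin1, a gene of the oxidative stress response, had 52.4 CPM in PKCi and 10.2 CPM in control cells, a ratio of 5.12 (1.79 to 20.1), and Cysltr2, a receptor of cysteinyl leukotrienes, stood at a ratio of 4.03 from 33 UMIs in 19 PKCi cells and 6 in 4 control cells. Fbxl20, an F-box protein of a ubiquitin ligase, had 50.6 CPM in PKCi and 12.8 CPM in control cells. These 5 also stayed called without the Krt8 barcodes, at 2.67 for Itpr1, 2.19 for Hspa1a, 5.42 for Osgin1, 5.51 for Cysltr2 and 2.69 for Fbxl20. After thinning Itpr1, Osgin1, Cysltr2 and Fbxl20 were not called, and Hspa1a was not called by the mean of per-cell levels. Xcl1 alone among the named genes with the highest ratios stayed called under all 13 alternatives. Some of these could not remove a call of any gene. A mitochondrial limit of 10% kept the same cells, and a minimum of 1 UMI and 1.5-fold alone only loosened the rule. Phlda1, which T cell receptor signalling induces, had 301 CPM in 19 PKCi cells and 74.2 CPM in 9 control cells, but was not called without those barcodes, at a ratio of 2.13, and neither was Arl5b, a small GTPase, at 2.48. Maf, a transcription factor of cytokine genes, had 31 UMIs in 5 PKCi cells and 6 in 4 control cells, a ratio of 3.78. With a CD8 limit of 2 UMIs its log2 ratio turned to -1.81.

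Among the genes with the lowest ratios, 3 of 12 stayed called without the Krt8 barcodes. Ccl3, an inflammatory chemokine of activated T cells, had 31 UMIs in 9 PKCi cells and 134 in 5 control cells, or 58.0 and 343 CPM, a ratio of 0.169 (0.111 to 0.252), and 0.0587 without the Krt8 barcodes. Ly6a, the activation and memory antigen Sca-1, had 56.2 CPM in 14 PKCi cells and 220 CPM in 15 control cells, a ratio of 0.255 (0.163 to 0.391), and Trerf1, a transcriptional regulator, 24.3 CPM in PKCi and 130 CPM in control cells, a ratio of 0.187. Ccl3 thus came from few control cells, while Ly6a was spread over more than 50% of them. The other 9 were Gtf2h1, Anapc4, Sh3rf1, Gins2, Prmt7, Tango6, Pclaf, Ulbp1 and Mocs2, with ratios of 0.190 to 0.318. Pclaf, which binds the replication clamp PCNA, had 107 CPM in PKCi and 376 CPM in control cells and a ratio of 0.683 without the Krt8 barcodes. Anapc4 and Tango6 turned direction after thinning, to log2 ratios of 0.0067 and 0.74.

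**Figure D3:**
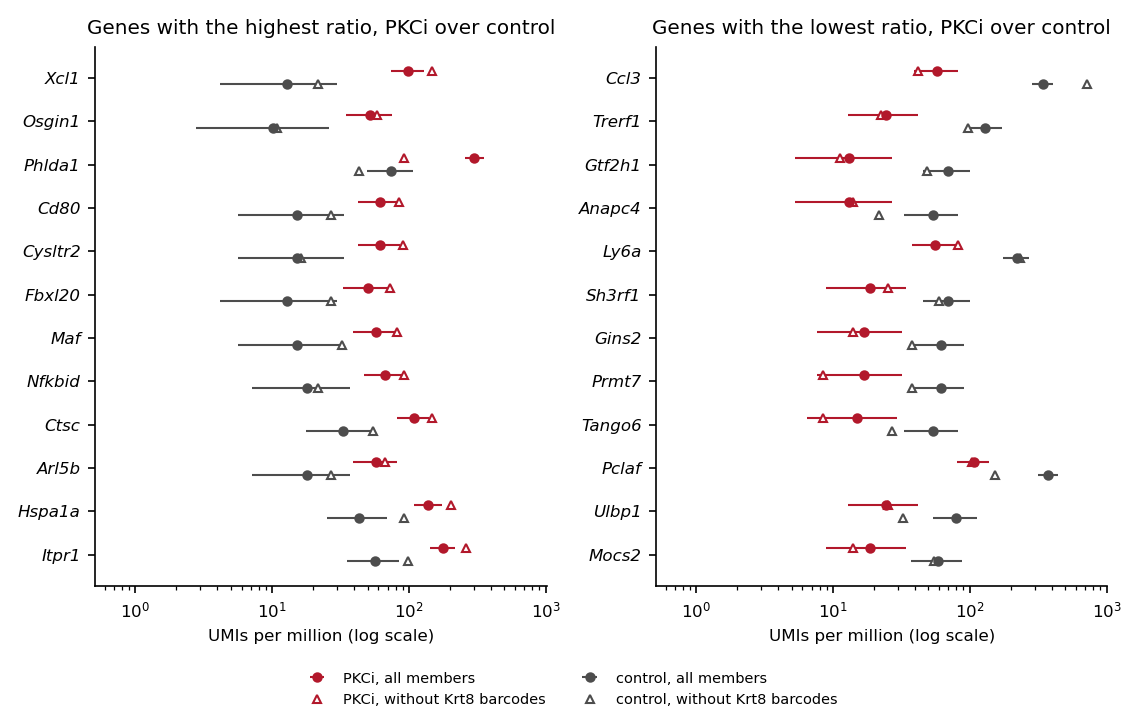
Levels in UMIs per 1000000 (log scale) of the named genes, 12 at the top and 12 at the bottom of the ratio of PKCi over control CD8 T cells. Filled circles with bars are all members with exact 95% Poisson intervals, and open triangles are the levels without the Krt8 barcodes. Xcl1 at 99.2 CPM in PKCi and 12.8 CPM in control members has the highest ratio, and Ccl3 at 58.0 and 343 CPM the lowest.

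Of the genes of killing, granzyme C stood out and granzyme B did not differ beyond counting error. Of 16 measured genes of cytotoxic granules and death ligands 3 were called higher in PKCi cells and 3 lower. Of all genes 5.38% and 7.88% were called. The list's median log2 ratio was 0.21 against -0.09 over all genes. Without the Krt8 barcodes the list's counts were the same, but its median was -0.18 against 0.01. Of all genes 5.38% and 4.54% were then called. Gzmc had 348 UMIs in 14 PKCi cells and 15 UMIs in 4 control cells, or 652 and 38.4 CPM, a ratio of 17.0 (10.2 to 30.7), and 12.8 without the Krt8 barcodes. 1 PKCi cell held 182 of the 348 UMIs and another 93, and 11 PKCi cells against 1 control cell had a UMI after thinning. Gzmf had 974 UMIs in 12 PKCi cells and 414 in 7 control cells, a ratio of 1.72 (1.53 to 1.94), and 1.59 without the Krt8 barcodes, with 53.7% and 53.6% of them in 1 cell of each library. In CD8-negative T cells Gzmc lay at 2282 CPM in the PKCi and 7108 CPM in the control library and Gzmf at 24.5 and 6270 CPM. How well the counting told reads of the related granzymes C to G apart was not tested. Gzmb had 494 CPM in 29 PKCi cells and 545 CPM in 18 control cells, a ratio of 0.907 (0.754 to 1.09), and Prf1 had 361 and 271 CPM, a ratio of 1.33 (1.05 to 1.71) that stayed under 1.5-fold. These ratios were 0.836 and 1.41 without the Krt8 barcodes. Granule genes thus did not move one way, and over 50% of the PKCi UMIs of Gzmc and of Gzmf came from 1 cell. Of the others, Gzma came from 1 cell in each library and Serpinb9b, a serine protease inhibitor, was called lower at 0.439.

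Cytokine genes likewise went in both directions, with 2 called higher and 1 lower of 9, where 5.38% and 7.88% of all genes were called. Leaving out the Krt8 barcodes, 1 was called higher and 2 lower of 8, and the median log2 ratio was -0.27 against 0.12 with all members. Ifng, interferon gamma, had 122 CPM in 23 PKCi cells and 166 CPM in 13 control cells, a ratio of 0.732 (0.511 to 1.05), and without the Krt8 barcodes it was called lower at 0.450 (0.306 to 0.659). After thinning it was seen in 16 of 43 PKCi and 7 of 24 control cells. Ccl5 had 1859 CPM in PKCi and 1711 CPM in control cells, a ratio of 1.09, and 0.817 without the Krt8 barcodes, and 1 control cell held 303 of the 669 control UMIs. Csf2, the cytokine GM-CSF, had 30 UMIs in 5 PKCi cells and 2 UMIs in 1 control cell, but was not called without the Krt8 barcodes, where its ratio was 3.36. The interferon gamma-induced feedback inhibitor Socs1 was called higher in PKCi cells at 2.83, and at 2.02 without those barcodes, and of 13 interferon gamma response genes it was called higher and Irgm1 lower, which was not called without those barcodes. Of 11 type I interferon genes 0 were called higher and 2 lower, Zbp1 and Ddx58, and without the Krt8 barcodes 0 of 9 were called.

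Among checkpoint genes Ctla4 differed most clearly, and Pdcd1 did not differ beyond counting error. Ctla4, the inhibitory receptor that competes with CD28 for CD80, had 203 UMIs in 43 of 51 PKCi cells and 54 UMIs in 15 of 26 control cells, or 380 and 138 CPM, a ratio of 2.75 (2.03 to 3.79). Without the Krt8 barcodes the ratio was 2.02 (1.47 to 2.83). At 3000 UMIs a Ctla4 UMI was seen in 27 of 43 PKCi cells (62.8%) and 8 of 24 control cells (33.3%), against 40 of 998 PKCi and 50 of 1000 control carcinoma barcodes. In CD8-negative T cells Ctla4 lay at 245 CPM in the PKCi library and 482 CPM in the control library. Whether the ratio of PKCi over control differed between the cell groups was not tested. Pdcd1 had 172 CPM in PKCi and 128 CPM in control CD8 T cells, a ratio of 1.35 (0.944 to 1.94), and 1.02 without the Krt8 barcodes. Of 19 checkpoint and exhaustion genes 6 were called higher and 1 lower, with a median log2 ratio of 0.43, where 5.38% and 7.88% of all genes were called, at a median of -0.09. Without those barcodes 2 of 18 were called higher, Ctla4 and Nr4a3, and 1 lower, Cd160, at a median of 0.06. Havcr2, which encodes TIM-3, and Lag3 stood at ratios of 0.986 and 1.42, both uncalled. Of 10 costimulatory receptors 3 were called higher, and Tnfrsf18 (GITR) stayed so without the Krt8 barcodes, at 245 CPM in PKCi and 113 CPM in control cells and ratios of 2.18 and 1.5, while Icos was then called lower at 0.635.

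Genes of naive and memory cells split. Ccr7 had 67.4 CPM in 11 PKCi cells and 187 CPM in 9 control cells, a ratio of 0.361 (0.235 to 0.545), and 0.255 without the Krt8 barcodes. Its control UMIs came mainly from 3 cells with 16, 16 and 15. Satb1, a chromatin organiser of T cell development, was also called lower, at 0.570. Il7r was called higher, with 60 UMIs in PKCi and 22 in control cells, a ratio of 2.0 that was 1.72 without the Krt8 barcodes. Klf2, which drives the genes of lymph node homing, was called higher at 2.32 with all members, but its ratio was 0.994 without those barcodes. Tcf7 had 10 UMIs in PKCi and 16 in control cells, a ratio of 0.457 (0.186 to 1.07), and 0.430 without the Krt8 barcodes. Of the adhesion genes, Cd44, the hyaluronan receptor of activated and memory cells, and Itga4, an integrin chain for entry into tissue, were called higher in both settings, at 2.03 and 2.51 with all members. Itgb2, the beta chain of LFA-1, was called lower without the Krt8 barcodes at 0.592.

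Genes that T cell receptor signals and stress induce within minutes to hours were higher in the PKCi cells as a group. Of 27 measured genes of this list 22 were called higher and 0 lower, where 5.38% and 7.88% of all genes were called. The list's median log2 ratio was 0.85 against -0.09 over all genes. Without the Krt8 barcodes 8 were called higher and 1 lower, where 5.38% and 4.54% of all genes were called. The list's median was then 0.46 against 0.01 over all genes. Nfkbia, the IkB alpha inhibitor that NF-kB itself induces, had 1005 UMIs in 49 of 51 PKCi cells and 291 in 22 of 26 control cells, or 1882 and 744 CPM, a ratio of 2.53 (2.22 to 2.89), and 2.64 (2.11 to 3.34) without the Krt8 barcodes. The AP-1 genes Jun, Fos and Fosb were called higher in both settings, at 2.80, 2.57 and 2.16 with all members and 1.94, 1.75 and 2.20 without the Krt8 barcodes. So were Nfkbid, Nr4a3 and the RNA-decay genes Zfp36l1 and Zfp36l2. Atf3, a stress-induced factor, was called lower without the Krt8 barcodes at 0.376.

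The height of the list varied more among cells of a library than between the libraries. Per cell it summed to a lowest, median and highest of 2165, 11431 and 31207 CPM in PKCi cells and 1200, 8307 and 35336 CPM in control cells, so the ranges overlapped almost wholly. The top 3 cells held 37.3% of the list's UMIs in the PKCi library and 36.8% in the control library. The list also summed to more in all other barcodes of the PKCi library, CD8-negative T cells included, at 9612 CPM in PKCi and 7212 CPM in control barcodes, and in CD8-negative T cells alone, at 9527 and 8128 CPM. In CD8 T cells the sum was 11608 CPM in the PKCi and 6319 CPM in the control library, and 11836 against 8651 CPM without the Krt8 barcodes. Heat shock genes, which tumour dissociation can induce along with Fos and Jun, were also called higher: Hsph1 stood at a ratio of 2.82, and 5.78 without the Krt8 barcodes, and Dnajb1 at 2.01 and 1.61. The part of dissociation in these levels was not tested. The metallothioneins Mt1 and Mt2, which bind zinc, went the other way, at 0.541 and 0.422, and at 0.288 and 0.266 without the Krt8 barcodes.

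**Figure D4:**
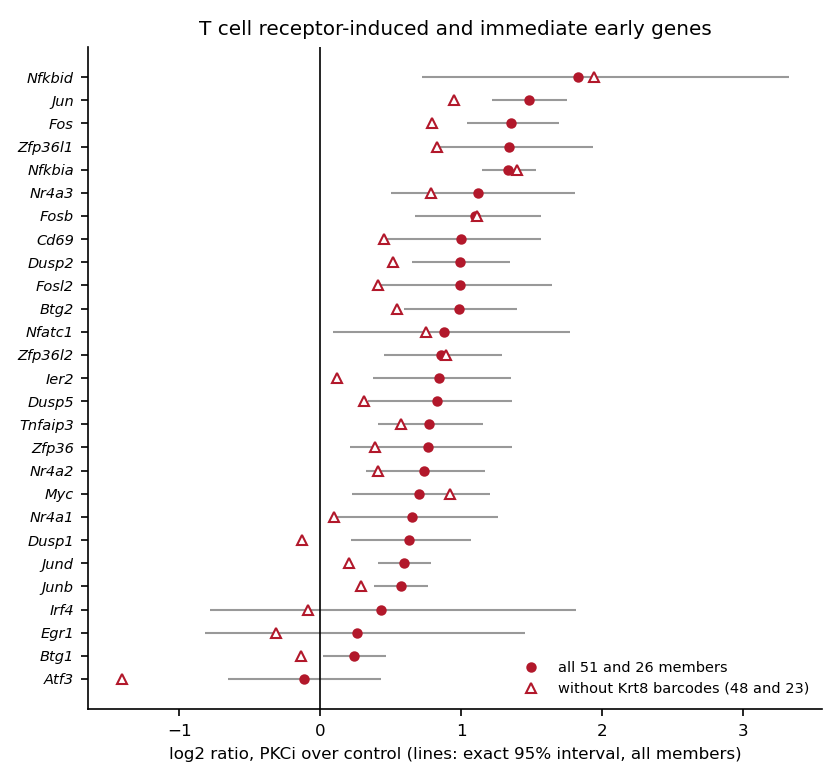
Log2 ratios of PKCi over control CD8 T cells for the 27 measured T cell receptor-induced and immediate early genes. Filled circles are all 51 and 26 members with lines for the exact 95% interval, and open triangles leave out the Krt8 barcodes (48 and 23 cells). 22 of the filled circles were called higher, and most triangles lie nearer to 0 than their circles.

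The PKC pathway itself was measured from few UMIs. Of 13 genes of PKC and diacylglycerol signalling 2 were called higher in PKCi cells and 0 lower, at a median log2 ratio of 0.22, where 5.38% and 7.88% of all genes were called, at a median of -0.09. The median turned to -0.07 without the Krt8 barcodes, where 1 of 12 was called. Malt1, the protease and scaffold that links PKC theta to NF-kB, had 172 CPM in 32 PKCi cells and 74.2 CPM in 14 control cells, a ratio of 2.32 (1.51 to 3.66), and 1.83 (1.15 to 3.01) without the Krt8 barcodes. Prkcq, PKC theta, had 105 CPM in 24 PKCi cells and 74.2 CPM in 12 control cells, a ratio of 1.41 (0.887 to 2.30), and 1.16 without the Krt8 barcodes. Bcl10, the partner of Malt1, stood at 0.904 and Prkch, PKC eta, at 1.23, both uncalled. Prkd3, a protein kinase D that diacylglycerol activates, was called higher at 2.28 from 28 UMIs in PKCi and 9 in control cells, but not without the Krt8 barcodes. RNA levels do not measure the kinase's activity.

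Xiap, the inhibitor of caspases named in the series' title, had 30 UMIs in 19 PKCi cells and 20 UMIs in 10 control cells, or 56.2 and 51.2 CPM. The ratio was 1.10, with an interval of 0.603 to 2.04, and 1.55 (0.707 to 3.74) without the Krt8 barcodes. After thinning a Xiap UMI was seen in 10 of 43 PKCi and 2 of 24 control cells, and in 114 of 998 PKCi and 104 of 1000 control carcinoma barcodes. Of 8 measured genes of its family and antagonists 0 were called, where 5.38% of all genes were called higher and 7.88% lower. Birc3, an inhibitor of apoptosis that NF-kB induces, was called lower at 0.574 without the Krt8 barcodes. Of 15 apoptosis genes Pmaip1, the BH3-only protein NOXA, was called higher at 2.67, and at 1.84 without those barcodes.

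Genes of mitosis were lower in the sums of the PKCi cells, while those of DNA synthesis changed direction with the Krt8 barcodes. Of 20 measured G2/M genes 0 were called higher and 7 lower, at a median log2 ratio of -0.37, where 5.38% and 7.88% of all genes were called, at a median of -0.09. Leaving out the Krt8 barcodes, 0 and 6 of 14 were called, at -0.95 against 0.01 over all genes. Of 17 S phase genes 0 were called higher and 4 lower, at a median of -0.58, but without the Krt8 barcodes 0 of 11 were called in either direction, at a median of 0.27. Ccnb2, a mitotic cyclin, and Cenpa, the centromeric histone, stood at 0.589 each, and at 0.197 and 0.292 without the Krt8 barcodes. Mki67 and Top2a were called lower with all members, at 0.619 and 0.587, but stood at 0.984 and 1.01 without those barcodes. Without the Krt8 barcodes the top 3 cells held 56.5% of the list's UMIs in the PKCi library and 64.3% in the control library. Counted by cell at 3000 UMIs, at least 3 G2/M genes were seen in 15 of 43 PKCi cells (34.9%) and 11 of 24 control cells (45.8%), but at 5000 UMIs in 19 of 30 PKCi cells (63.3%) and in 12 of 20 control cells. Both Mki67 and Top2a had a UMI in 7 PKCi and 8 control cells at full depth.

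Set against CD8-negative T cells of the same tumours, CD8 T cells had more PD-1, NKG2A and Ly6c2 RNA. This comparison used 4 sums, CD8 T and CD8-negative T cells of each library with the library as a block, and edgeR's quasi-likelihood test with Benjamini-Hochberg adjustment. It has 1 residual degree of freedom and calls changed with the settings. Of 9360 genes 23 were higher in CD8 T cells (0.246%) and 23 lower (0.246%), and without the Krt8 barcodes 19 of 7707 (0.247%) and 15 (0.195%), of which 28 were shared. Without the doubtful barcodes of both gates, those with Krt8, S100a8, Ncr1 or, among CD8 T cells, Cd4 or Foxp3 UMIs, 41 of 6537 were higher (0.627%) and 76 lower (1.16%). Pdcd1 had 172 CPM in PKCi and 128 CPM in control CD8 T cells, against 25.5 and 38.0 CPM in CD8-negative T cells, a log2 fold change of 2.24 (edgeR adjusted p = 0.0225). Over 8 alternatives its edgeR or DESeq2 adjusted p stayed under 0.05 in 6 and reached 0.144. It was seen in 26 of 51 PKCi and 15 of 26 control CD8 T cells, against 13 of 91 and 15 of 63 CD8-negative T cells.

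Klrc1, which encodes the inhibitory receptor NKG2A of NK cells and activated CD8 T cells, had 159 CPM in PKCi and 159 CPM in control CD8 T cells, against 14.9 and 41.7 CPM in CD8-negative T cells (log2 fold change 2.56, edgeR adjusted p = 0.0216, up to 0.161 over the alternatives). It was seen in 35 of 51 PKCi and 16 of 26 control CD8 T cells, against 7 of 91 and 9 of 63 CD8-negative T cells. Ly6c2, a surface antigen of memory CD8 T cells, had 208 and 182 CPM in PKCi and control CD8 T cells, against 42.5 and 35.5 CPM (log2 fold change 2.31, edgeR adjusted p = 0.00867, up to 0.0823). In these 3 genes the difference had the same direction in both libraries, which was a condition for naming them. Ccl5, Ccl4, Ccl3 and the residency-linked chemokine receptor Cxcr6 passed with all members (edgeR adjusted p = 0.0115, 0.0300, 0.0155 and 0.0210) but not without the Krt8 barcodes (0.0584, 0.0671, 0.0953 and 0.0609). Nr4a2, an orphan receptor induced by T cell receptor signals, passed in both, with a log2 fold change of 1.59 (edgeR adjusted p = 0.0299).

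Further genes that passed rested on few cells. Nrn1, a neuritin, had 52.4 and 46.0 CPM in PKCi and control CD8 T cells, against 0 and 1.23 CPM in CD8-negative T cells (log2 fold change 6.03, edgeR adjusted p = 0.0115), in 5 PKCi and 7 control cells. Gldc, a glycine-cleaving enzyme, was seen in 7 PKCi and 6 control CD8 T cells, Serpine2, a protease inhibitor, in 9 and 9, Galnt18, a glycosyltransferase, in 6 and 4, and Filip1, a filamin-binding protein, in 12 and 7, with log2 fold changes of 4.93, 3.77, 3.71 and 2.37. Of the 28 PKCi UMIs of Nrn1, 22 came from 1 cell, and 61.8% of the control UMIs of Galnt18 came from 1 Krt8 barcode. Il1b came to 91.9% and 85.7% from 1 PKCi and 1 control cell. Of 25 checkpoint and exhaustion genes 3 passed, all higher in CD8 T cells, where 0.246% of all genes passed in each direction. The list's median log2 fold change was 0.37. Ctla4 was not among the 3 that passed, at -0.52 (edgeR adjusted p = 0.975).

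**Figure D5:**
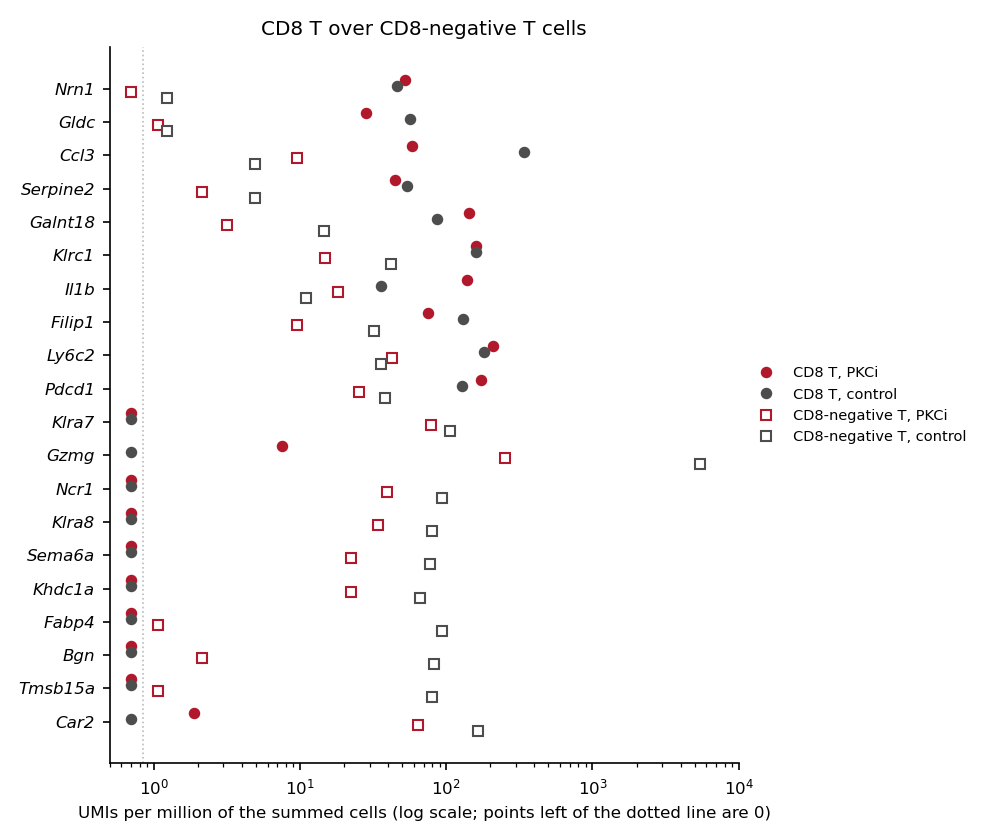
Levels in UMIs per 1000000 (log scale) of the named genes, 10 at the top and 10 at the bottom of the fold change of CD8 T over CD8-negative T cells. Only genes with the same direction in both libraries were named. Filled circles are CD8 T cells and open squares CD8-negative T cells of the PKCi and control libraries, and points left of the dotted line are 0. Klrc1 (159 CPM in CD8 T cells of each library) and Pdcd1 lie to the right of their squares in both libraries, and Klra7 and Ncr1 are at 0 in CD8 T cells.

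The genes lower in CD8 T cells included receptors and adaptors of NK cells, although the killer receptor list did not move one way. Of its 14 measured genes 4 were lower and 1 was higher, Klrc1, by edgeR, where 0.246% of all genes passed in each direction. The list's median log2 fold change was 0.44 against 0.00 over all genes. Klra7 and Klra8, Ly49 receptors, had 0 UMIs in CD8 T cells of both libraries, against 74 and 87 UMIs of Klra7 and 32 and 65 of Klra8 in CD8-negative T cells of the PKCi and control libraries, and Ncr1, the activating receptor NKp46, 0 UMIs against 37 and 76. Car2, carbonic anhydrase, had 1 and 0 UMIs against 60 and 135 (edgeR adjusted p = 0.00487). The signalling adaptors Fcer1g and Tyrobp were lower too, with log2 fold changes of -2.70 and -3.67. The CD8-negative gate held 11 PKCi and 12 control barcodes with an Ncr1 UMI and 16 and 24 with a Foxp3 UMI, so it is a mixture that includes barcodes with NK and regulatory T cell genes. Fabp4 and Bgn, which mark stromal cells, each came almost wholly from 1 control barcode of that gate. Gzmg had 4 and 0 UMIs in CD8 T cells against 238 and 4453 in CD8-negative T cells, and 58.7% of those 4453 came from 1 control barcode.

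Against the NK gate, T cell genes outside the rule were higher in CD8 T cells. The gates themselves split cells by T cell receptor UMIs, so differences in genes expressed along with the receptor follow largely from the gates. Of 8614 genes 139 were higher in CD8 T cells (1.61%) and 101 lower (1.17%) by edgeR, and without the Krt8 barcodes 191 (3.17%) and 170 (2.82%) of 6033. In the control NK gate 8 of 15 barcodes carried at least 3 Krt8 UMIs and held 80.3% of its UMIs, against 2 of 36 barcodes and 21.9% in the PKCi library. Themis, a regulator of T cell receptor signalling, had 315 CPM in PKCi and 274 CPM in control CD8 T cells and 0 UMIs in NK cells of both libraries (edgeR adjusted p = 1.43e-12). Its adjusted p was under 0.05 in 6 of 7 alternatives and 1.00 by DESeq2. Pdcd1, Cxcr6 and the costimulatory receptor Tnfrsf4 (OX40) were likewise at 0 UMIs in the NK gate, against 187 and 128 CPM of Tnfrsf4 in PKCi and control CD8 T cells. Of 22 checkpoint genes 11 were higher in CD8 T cells and 0 lower, at a median log2 fold change of 1.36 against 0.01 over all genes, and without the Krt8 barcodes 11 were higher and 2 lower, at 1.03. Of 10 costimulatory receptors 6 were higher and 0 lower in both settings. Of 17 granule and death ligand genes 0 were higher and 5 lower, at a median of -0.44, and without the Krt8 barcodes 0 were higher and 10 lower, at -1.16, and Gzmc lay at 652 and 38.4 CPM in CD8 T cells against 5741 and 1527 CPM in NK cells of the PKCi and control libraries.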

How the data were processed

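RNA of single cells was measured with 10x 3' chemistry version 3.1 and sequenced, per the labels' protocols. The deposited matrices hold UMI counts per gene and barcode for 32285 genes, made by the authors with Cell Ranger 7.0.0 per the file headers, and the submitters' processing notes name GRCm38 and Seurat without saying what Seurat did. The whole libraries held 229219749 UMIs in 7457 PKCi barcodes and 222641855 UMIs in 6688 control barcodes. UMIs come from transcript ends, so levels were not compared between genes.

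Members were gated by the rule in the text, with no clustering. The members and gene lists were chosen with earlier results of these data known, so a list's direction is no independent evidence. UMIs were summed over the cells of each gate and library and given per 1000000 UMIs of the sum, with exact Poisson intervals, exact conditional intervals for ratios and Clopper-Pearson intervals for shares. Log2 ratios had 0.5 count added per sum. The intervals treat UMIs as independent, although 1 cell can hold most of them, so they are too narrow for the population of cells. Genes needed 20 UMIs over both sums. Named were the 12 highest and 12 lowest called genes with at least 50 CPM in the higher library, at most 50% of its UMIs from 1 cell and a level not under that of the other barcodes. For each cell group comparison the 10 highest and 10 lowest passing genes by fold change were named. Only genes with the same direction in both libraries were considered. Other genes come from the lists, or are given where a list's count turns on them.

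CD8 T cells were compared with CD8-negative T and NK cells with edgeR 4.0.16 in R 4.3.3 (quasi-likelihood test, TMM, library as block, Benjamini-Hochberg at 0.05). DESeq2 1.42.0 was an alternative. On simulated counts of the CD8-negative comparison edgeR recovered 91.5% of genes changed 4-fold. The changed genes were drawn from those with high counts, at a fixed dispersion and with no clumping of UMIs in single cells. This share therefore does not carry over to sparse genes or to genes carried by few cells. Scrublet in scanpy 1.11.5 called 135 PKCi barcodes (1.87%) and 2 control barcodes (0.0313%), so it did not work in the control library, and doublets were left in. It called 3 PKCi members and 0 control members. Other steps used Python 3.11.15, numpy 2.4.6, scipy 1.17.1 and pandas 2.3.3, and figures matplotlib 3.10.9. Motifs were searched in RefSeq promoters, and 63 of 64 named genes were found in RefSeq.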

Additional observations from a re-analysis of the deposited data

Results flagged for a closer look

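Of 104 called genes that were named or listed, 63 were called higher and 41 lower in CD8 T cells of the PKCi library, and 11 of the 63 and 0 of the 41 were called the other way in CD8-negative T cells. Over all called genes this held for 42 of 338 higher (12.4%) and 55 of 495 lower (11.1%). Whether the ratio of PKCi over control differed between the cell groups was not tested. The CD8-negative gate is a mixture that holds barcodes with NK and regulatory T cell genes. Its ratios here include its Krt8 barcodes, which held 47.5% of its PKCi UMIs and 30.2% of its control UMIs. The part of carcinoma RNA in these ratios was not tested. Of the named genes, the log2 ratios of PKCi over control in CD8 T cells were 2.21 for Osgin1, 1.92 for Cysltr2 and 1.64 for Hspa1a. In CD8-negative T cells Osgin1 had 7 PKCi and 17 control UMIs, a ratio of 0.357 (0.125 to 0.906), Cysltr2 had 35 and 71 UMIs, a ratio of 0.428 (0.277 to 0.650), and Hspa1a had 50 and 72 UMIs, a ratio of 0.602 (0.411 to 0.876). Of the granule, killing and cytokine genes, the log2 ratios in CD8 T cells were 4.04 for Gzmc, 0.78 for Gzmf, 0.74 for Cst7, an inhibitor of cathepsins, 0.64 for Klre1, a killer lectin receptor, and 3.16 for Csf2. In CD8-negative T cells Gzmc had 2146 PKCi and 5799 control UMIs, a ratio of 0.321, Gzmf 23 and 5115 UMIs, a ratio of 0.00390, Cst7 48 and 100 UMIs, a ratio of 0.416, Klre1 62 and 84 UMIs, a ratio of 0.640, and Csf2 26 and 59 UMIs, a ratio of 0.382. The checkpoint genes Ctla4 and Tox stood at log2 ratios of 1.45 and 0.62 in CD8 T cells and at ratios of 0.508 (0.430 to 0.599) and 0.597 (0.467 to 0.762) in CD8-negative T cells. Ddit4, an inhibitor of mTOR signalling induced by stress, stood at a log2 ratio of 0.77 in CD8 T cells and a ratio of 0.593 in CD8-negative T cells. Without the Krt8 barcodes Csf2, Cst7, Klre1 and Tox were no longer called in CD8 T cells, at ratios of 3.36, 1.27, 1.08 and 1.43. Xcl1 and Nfkbid were instead called higher in the PKCi library in both cell groups, at 2.69 and 1.82 in CD8-negative T cells.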

How the results depend on the processing

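The share of CD8 T cells stayed higher in the PKCi library under each alternative, at ratios of 1.66 to 2.04, and at 1.23 to 1.34 among T cells. Genes called higher and lower in PKCi members numbered 225 and 190 without the Krt8 barcodes, 83 and 76 after thinning to 3000 UMIs, 218 and 295 at a minimum of 50 UMIs, 735 and 1088 by 1.5-fold alone and 196 and 265 by 2-fold with the interval. Leaving out the Krt8, S100a8, Cd4 and Foxp3 barcodes, an alternative chosen after seeing the data, gave 218 and 223. Of 216 recomputed log2 ratios of the named genes (24 genes under 9 alternatives) 190 moved by less than their counting error, and 3 turned: Maf to a log2 ratio of -1.81 with a CD8 limit of 2 UMIs, and Anapc4 and Tango6 to 0.0067 and 0.74 after thinning. The 190 include all 24 ratios under a mitochondrial limit of 10%, which kept the same cells and so could not move a ratio. A T cell limit of 5 UMIs kept 50 PKCi and 26 control members and could move them little. Over CD8-negative T cells, higher and lower genes numbered 9 and 6 by DESeq2, 61 and 88 with totals, 21 and 11 with no library block, 2 and 1 at 50 UMIs, 60 and 101 at 1 UMI, 96 and 129 with a CD8 limit of 2 UMIs, 19 and 15 without the Krt8 barcodes and 41 and 76 without the doubtful ones. Over NK cells they numbered 26 and 12 by DESeq2, 19 and 0 with no library block (442 genes at an unadjusted p under 0.05 by edgeR), 49 and 29 at 50 UMIs, 61 and 39 with a CD8 limit of 2 UMIs and 191 and 170 without the Krt8 barcodes. Without thinning, cells past the list limits took 98.0% (PKCi) and 100% (control) for naive and memory genes, 92.2% (PKCi) and 80.8% (control) for granule genes, 96.1% and 88.5% for checkpoint genes and 56.9% and 69.2% for G2/M genes, and at 5000 UMIs 93.3% (PKCi) and 75.0% (control) for naive and memory genes and 63.3% (PKCi) and 12 of 20 cells (control) for G2/M genes, so the order of the libraries in G2/M turned at that depth. The cause of these moves was not tested. Leaving out a library leaves values with no test. Between PKCi and control no paired analysis was possible because each treatment has 1 library, while cell groups were paired within libraries. A minimum of 1 UMI gave 406 higher and 621 lower of 13608 genes, and 6283 of these reached 20 UMIs.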
